A study of Mus musculus with 24 samples.

Results

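The 7 genes described here encode the myocyte enhancer factors Mef2a, Mef2c and Mef2d and the class IIa histone deacetylases Hdac4, Hdac5, Hdac7 and Hdac9, which bind MEF2 proteins and repress their targets. They were chosen by name, as the MEF2 factors and their class IIa repressors among the 24043 gene symbols of the deposited expression table, and all 7 symbols were found there. RNA came from C2C12 cells, a mouse myoblast line that divides in growth medium and fuses into myotubes in differentiation medium. Growth medium was DMEM with 10% fetal bovine serum at either 21% oxygen (normoxic growth medium) or 2% oxygen (hypoxic growth medium). Differentiation medium was DMEM with 2% horse serum and the supplement ITS, again at 21% oxygen (normoxic differentiation medium) or 2% oxygen (hypoxic differentiation medium), and the labels name no genetic change in any group. Each of the 4 groups had 2 RNA-seq libraries, called replicates A and B and described as biological replicates. The labels do not say whether A and B came from separate cultures, and all groups come from a single cell line, so p-values measure the spread between these libraries. The duration of differentiation is not given in full in the sources used here, and the chromatin and input libraries of the series were not analysed here.

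MEF2 proteins are transcription factors of the MADS-box family. They bind A/T-rich sites in the promoters and enhancers of many muscle genes and act together with MyoD and myogenin. Class IIa histone deacetylases have little deacetylase activity of their own. They dock on the DNA-binding part of MEF2 and bring in a corepressor complex that holds Hdac3, and in myoblasts this keeps muscle genes silent. Calcium/calmodulin-dependent kinases, protein kinase D and salt-inducible kinases phosphorylate class IIa proteins, which then bind 14-3-3 proteins and leave the nucleus. That step, like the phosphorylation of MEF2 itself, is not visible in RNA levels. Isoforms cannot be told apart in a table with 1 value per gene. These include the muscle splice forms of Mef2d and the short Hdac9 form that lacks the deacetylase domain.

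Expression values were read as FPKM, a fragment count scaled for transcript length and library size. That unit was inferred from the values, which are not whole numbers, and from the quantifier, since the table itself is named as gene counts. Orders, sums and ratios across genes below rest on that reading. Tests were run with limma on log2(FPKM + 1) over the 12389 genes whose mean reached 1 FPKM in any group, and a gene was called changed at a Benjamini-Hochberg adjusted p under 0.05. Hdac9 stayed under that filter in every group, so 6 of the 7 genes were tested. Mef2c passed it only through normoxic differentiation medium, where it was highest. Tests of Mef2c that involve that group therefore carry no weight, although counts of called members include it. Differences are given as log2 changes with their standard error (SE) beside the ratio of mean FPKM, and levels as mean ± SD of 2 libraries. Replicates correlated with r of 0.958 to 0.983 across the tested genes. The hypoxic differentiation pair stood apart from the others, with 613 genes more than 2-fold apart between A and B, against 56 to 71 in the other groups. Within that pair the 5 members above 1 FPKM differed by 1.00- to 1.24-fold. Of 6 myoblast identity markers, 5 were called lower and 1 (Vim) higher in hypoxic than in normoxic growth medium (median log2 change -1.85). Of all genes 28.0% were called lower and 13.5% higher there (median -0.14). The marker counts were the same between the differentiation media (median -2.54), beside 27.7% of all genes lower and 37.5% higher (median 0.15). Myod1, the myoblast master regulator, was at 138.7 and 108.1 FPKM in normoxic and 25.1 and 26.1 FPKM in hypoxic growth medium. It was at 180.5 and 171.5 FPKM in normoxic and 6.95 and 11.8 FPKM in hypoxic differentiation medium. The part of these markers in the results below was not tested. Of 10 markers of blood, endothelial, fat, glial, epithelial and liver cells 9 stayed under 1 FPKM in every library. The exception was Cd68, a lysosomal protein abundant in macrophages, at 25.8 and 42.8 FPKM in hypoxic differentiation medium and at most 3.57 FPKM elsewhere. The pan-leukocyte gene Ptprc was at 0 in 7 libraries and at 0.0137 FPKM in hypoxic differentiation replicate B. The summed level of the 10 markers was 26.0 and 43.2 FPKM in that group and 1.82 to 3.74 FPKM in the others, and its part in the results below was not tested.

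Promoter sequences are shown because MEF2 proteins bind A/T-rich letters, and 2 of the 7 genes hold such letters near an annotated start. Whether these letters bear on the change of either gene was not tested. RefSeq windows of 300 bases, from 250 bases before to 50 after each annotated start (build GRCm38.p6), were searched on both strands for the MEF2 consensus. Of 32851 windows over all genes, 3.19% held it. It was found in 2 of the 13 windows of the 7 genes, in Mef2a (positions -2 to 8) and Hdac5 (positions -20 to -11). The stretches printed below, which hold these matches, are chr7:67372839-67372938 for Mef2a and chr11:102230153-102230252 for Hdac5, both on the minus strand. Each stretch of 100 bases is given 5′ to 3′ on the strand of the gene, with the match in capitals.
Mef2a: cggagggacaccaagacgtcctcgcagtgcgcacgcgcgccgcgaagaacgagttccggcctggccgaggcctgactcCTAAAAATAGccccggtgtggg
Hdac5: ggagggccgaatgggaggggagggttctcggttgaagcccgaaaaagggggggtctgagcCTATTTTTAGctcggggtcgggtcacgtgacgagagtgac
The capitals of Mef2a and Hdac5 are the same letters read from opposite strands. The 3 windows of Mef2c, the 4 of Hdac7, the 2 of Hdac9 and the single windows of Mef2d and Hdac4 did not hold the consensus, which says only that these letters are not in those windows. Hdac5 was also the only member with the core letters of hypoxia response elements, ACGTG, which 19.6% of all windows held. Nothing in the expression table shows which start site was used or whether a factor was bound.

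The first comparison asked how the MEF2 factors and their repressors change when myoblasts are moved to differentiation medium at 21% oxygen. All 3 MEF2 factors rose, Hdac5 and Hdac7 fell, and Hdac4 did not pass the test. Among the 6 tested members 5 were called, 3 higher and 2 lower, beside 66.5% of all genes called in this contrast (25.5% higher and 41.0% lower, or 33.9% and 31.5% after median-of-ratios scaling of the libraries). The same 5 members were called with a log2 change of at least 1, as were 28.6% of all genes. Mef2c is counted in both, although it passed the filter only through its highest group. The median log2 change of the members was 0.37 and that of all genes -0.20, which the scaling moved to 0.00. In bulk RNA, fewer cells of a type and less RNA per cell cannot be told apart.

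**Figure D1:**
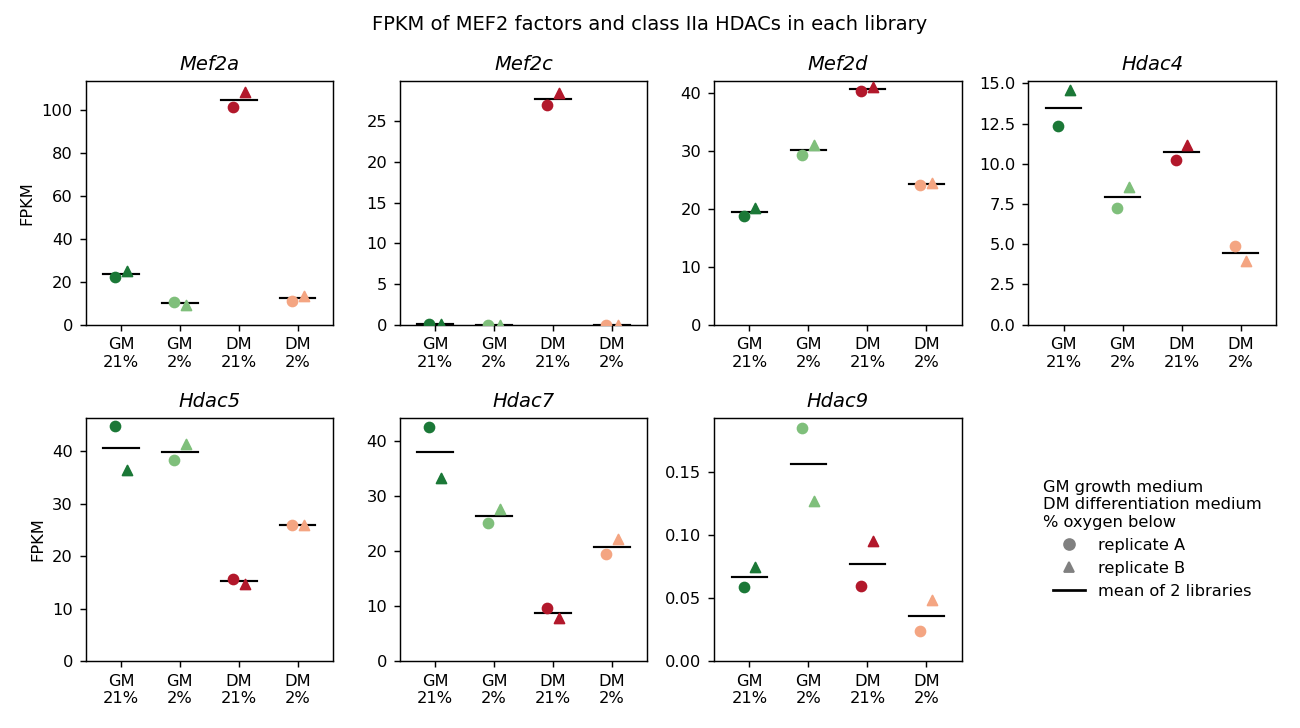
FPKM (y axis, linear, from 0) of each of the 7 genes in the 8 libraries, by medium (GM growth, DM differentiation) and oxygen (x axis), with circles for replicate A, triangles for replicate B and a line at the mean of 2 libraries. Mef2a, Mef2c and Mef2d are highest in normoxic differentiation medium, Hdac5 and Hdac7 are lowest there, and Hdac9 is under 0.19 FPKM everywhere.

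Mef2c, the factor that is activated late in myoblast differentiation, was close to absent outside normoxic differentiation medium. It was listed at 0.0405 and 0.0547 FPKM in normoxic growth medium (replicates A and B), 0.0158 and 0.0167 FPKM in hypoxic growth medium, and 0.0141 and 0 FPKM in hypoxic differentiation medium. In normoxic differentiation medium it reached 26.95 and 28.5 FPKM. Both libraries of that group thus lay far above the other 6, which did not exceed 0.06 FPKM. The lowest values of 3 libraries were equal once multiplied by the relative depth of the library, so they hold the same smallest step. If that step is 1 fragment, the pooled values in normoxic growth medium rest on about 5.5 fragments. The ratio of normoxic differentiation to normoxic growth medium was then 573, with a 95% Poisson interval of 255 to 1652 that covers counting error in the low group only. The fitted log2 change was 4.78 ± 0.09 (SE), and 7.56 with a pseudocount of 0.1 in place of 1. The pseudocount sets the size of the change of a gene near 0. The filter selected Mef2c for this high group, so a test of the rise carries no weight.

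Mef2a, the most abundant MEF2 gene of myotubes, went from 22.0 and 24.97 FPKM in normoxic growth medium to 101.0 and 108.3 FPKM in normoxic differentiation medium. The 4.46-fold rise (log2 change 2.11 ± 0.12, adjusted p 1.61e-05) was many times the difference between replicates. Mef2d, which is expressed in dividing myoblasts and switches splice forms on differentiation, went from 18.7 and 20.0 to 40.4 and 40.9 FPKM. Its rise was smaller, 2.10-fold (1.03 ± 0.07, adjusted p 3.84e-05), and its groups did not overlap either.

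Among the repressors, Hdac7 fell furthest, from 42.5 and 33.4 to 9.65 and 7.89 FPKM, a level 4.33-fold lower (log2 change -1.99 ± 0.15, adjusted p 4.53e-05). Hdac7 is known for roles in endothelial cells and thymocytes and is also a MEF2 repressor in C2C12 cells. Hdac5, a target of calcium-dependent kinases in muscle, fell from 44.9 and 36.4 to 15.6 and 14.8 FPKM, 2.67-fold lower (-1.35 ± 0.11, adjusted p 6.42e-05). For both genes both differentiation libraries lay below both growth libraries. Hdac4, which links denervation to MEF2 activity in muscle fibres, was at 12.4 and 14.6 FPKM before and 10.3 and 11.2 FPKM after the change of medium (-0.30 ± 0.14, adjusted p 0.0972, 95% interval -0.64 to 0.03). Hdac9 was at 0.0587 and 0.0749 FPKM in growth medium and 0.0597 and 0.0952 FPKM in differentiation medium, values that overlap and rest on a few fragments.

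At 2% oxygen the same change of medium raised no member. Mef2c stayed at the level of single fragments, and its log2 change was -0.01 ± 0.09 (adjusted p 0.925). Mef2a was at 10.6 and 9.27 FPKM in hypoxic growth medium and 11.1 and 13.5 FPKM in hypoxic differentiation medium, a difference that did not pass the test (0.27 ± 0.12, adjusted p 0.12, 95% interval -0.02 to 0.57). It passed without hypoxic differentiation replicate A (0.41, adjusted p 0.0318). Mef2d went down, from 29.2 and 31.0 to 24.2 and 24.5 FPKM (-0.30 ± 0.07, adjusted p 0.0205).

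Hdac4 fell in this comparison, from 7.26 and 8.59 to 4.90 and 3.95 FPKM (log2 change -0.72 ± 0.14, adjusted p 0.0082), and Hdac5 from 38.3 and 41.3 to 25.9 and 25.9 FPKM (-0.60 ± 0.11, adjusted p 0.00642). Hdac7 was at 25.2 and 27.7 FPKM before and 19.5 and 22.2 FPKM after (-0.33 ± 0.15, adjusted p 0.125). Of the 6 tested members 3 were called, all lower, and by limma none was higher, also at an unadjusted p under 0.05 (0 of 6). Of all genes 40.9% were called, 23.3% higher and 17.6% lower, or 19.6% and 20.3% after median-of-ratios scaling. With a log2 change of at least 1, 0 members and 7.47% of all genes were called. These calls were fragile. Without hypoxic growth replicate B none of the 3 passed, with adjusted p of 0.132 for Mef2d, 0.0641 for Hdac4 and 0.0537 for Hdac5. With only the 4 libraries compared Hdac5 alone passed, while Mef2d had an adjusted p of 0.0632 and Hdac4 of 0.0535. Mef2d also missed the threshold without hypoxic growth replicate A (adjusted p 0.0691).

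**Figure D2:**
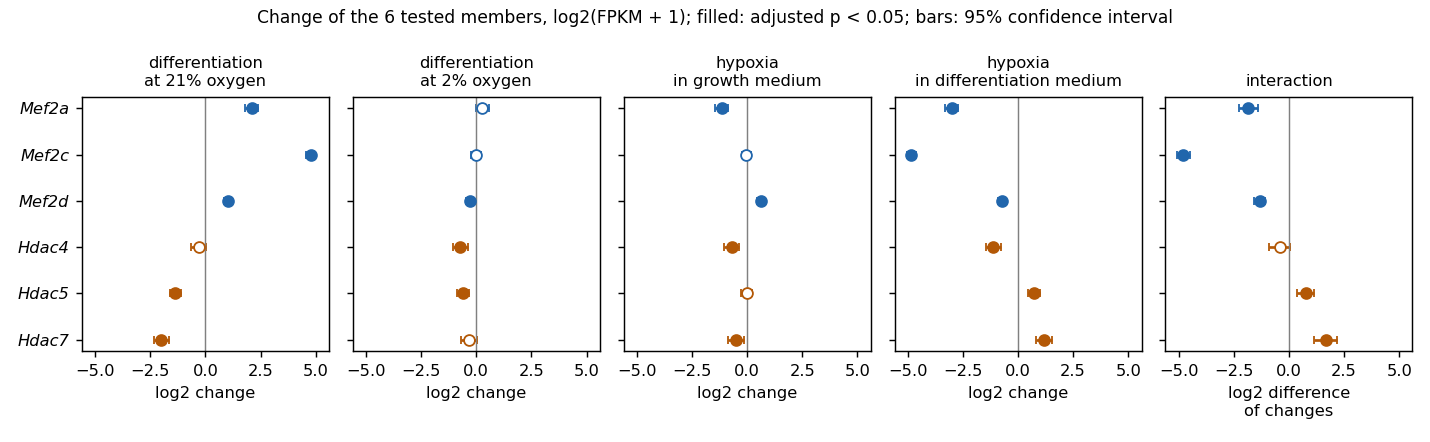
Fitted change on the log2(FPKM + 1) scale (x axis) of the 6 tested genes (y axis) in the 5 contrasts, with MEF2 factors in blue, deacetylases in orange, bars for the 95% confidence interval and filled points for an adjusted p under 0.05. The MEF2 factors lie at 1.03 to 4.78 for differentiation at 21% oxygen and at -0.30 to 0.27 for differentiation at 2% oxygen.

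The interaction asks whether the change with medium differed between the oxygen levels. It was negative for all 3 MEF2 factors. The difference of the log2 changes (2% minus 21% oxygen) was -4.79 ± 0.12 for Mef2c, and -7.68 with a pseudocount of 0.1. The filter selected Mef2c for its high group, so a test of this value carries no weight. The difference was -1.84 ± 0.17 for Mef2a (adjusted p 0.000249) and -1.33 ± 0.11 for Mef2d (adjusted p 0.000124). It was positive for Hdac7 (1.66 ± 0.21, adjusted p 0.000872) and Hdac5 (0.76 ± 0.15, adjusted p 0.0064), so their log2 changes were less negative at 2% oxygen than at 21%. Hdac4 did not pass (-0.42 ± 0.20, adjusted p 0.119, 95% interval -0.89 to 0.06). The 5 calls among 6 members stand beside 54.1% of all genes, 35.4% with a positive and 18.7% with a negative interaction, or 23.7% and 26.7% after median-of-ratios scaling. With a size of at least 1, 4 members and 27.5% of all genes passed. The Hdac5 interaction was lost after that scaling (0.44, adjusted p 0.0564). Hdac4 passed under it (-0.71, adjusted p 0.0371), and also without hypoxic differentiation replicate A (-0.54, adjusted p 0.0434).

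In growth medium the members already differed between oxygen levels. Mef2a was lower at 2% oxygen, at 9.95 ± 0.97 FPKM against 23.5 ± 2.09 FPKM (SD, n = 2), a 2.36-fold difference (log2 change -1.16 ± 0.12, adjusted p 0.000666). Mef2d moved the other way, from 19.4 ± 0.983 to 30.1 ± 1.22 FPKM, 1.55-fold higher (0.61 ± 0.07, adjusted p 0.00113). Hdac4 was 1.70-fold lower (-0.70 ± 0.14, adjusted p 0.00828), a call lost without hypoxic growth replicate A (adjusted p 0.0643).

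Hdac7 was 1.44-fold lower in hypoxic growth medium (log2 change -0.50 ± 0.15, adjusted p 0.036). This call was lost after median-of-ratios scaling (-0.35, adjusted p 0.0836), after upper-quartile scaling (-0.33, adjusted p 0.0964), without a filter on low values (adjusted p 0.0569), with the replicate letter as a block (adjusted p 0.055), and without any of normoxic growth replicate A, either hypoxic growth library or either normoxic differentiation library (adjusted p 0.053 to 0.175). Hdac5 was at 40.6 ± 5.95 and 39.8 ± 2.12 FPKM, with overlapping libraries (-0.02 ± 0.11, adjusted p 0.884, 95% interval -0.29 to 0.24), and its sign turned under both scalings. Mef2c was near 0 at both oxygen levels. The 4 calls, 1 higher and 3 lower, stand beside 41.4% of all genes called (13.5% higher and 28.0% lower, or 18.5% and 20.8% after median-of-ratios scaling). With a log2 change of at least 1, Mef2a was called alone among the members, beside 10.2% of all genes. Without hypoxic growth replicate A 2 calls were left, those of Mef2a and Mef2d.

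In differentiation medium all 6 tested members differed between oxygen levels, beside 65.2% of all genes (37.5% higher and 27.7% lower at 2% oxygen, or 31.3% and 33.9% after median-of-ratios scaling). With a log2 change of at least 1, 4 members and 27.6% of all genes were called. The MEF2 factors and Hdac4 were lower, Hdac5 and Hdac7 higher. Mef2a was at 11.1 and 13.5 FPKM at 2% oxygen against 101.0 and 108.3 FPKM at 21%, 8.53-fold lower (log2 change -2.998 ± 0.123, adjusted p 3.09e-06). Mef2c fell to 1 step in 1 library and 0 in the other (fitted log2 change -4.83 ± 0.09). The pooled ratio of 21% to 2% oxygen was 3231 with a Poisson interval of 580 to 127622. The filter selected Mef2c for the group at 21% oxygen, so a test of this difference carries no weight. Mef2d was 1.67-fold lower (-0.72 ± 0.07, adjusted p 0.000196). All 6 members kept their sign and call here under each alternative scaling, pseudocount, filter and left-out library tried. The size for Mef2c was -8.03 with a pseudocount of 0.1. Cd68 moved with this comparison (log2 change 3.47, adjusted p 3.88e-05), and its part in these differences was not tested.

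Hdac4 was 2.42-fold lower in hypoxic than in normoxic differentiation medium (4.43 ± 0.668 against 10.7 ± 0.651 FPKM, log2 change -1.11 ± 0.14, adjusted p 0.000487). Hdac7 was 2.38-fold higher (20.9 ± 1.92 against 8.77 ± 1.25 FPKM, 1.17 ± 0.15, adjusted p 0.000525), and Hdac5 1.70-fold higher (25.9 ± 0.0185 against 15.2 ± 0.612 FPKM, 0.73 ± 0.11, adjusted p 0.0011). The class IIa genes thus did not move as 1 group. Hdac4 was lowest in hypoxic differentiation medium, whereas Hdac5 and Hdac7 were lowest in normoxic differentiation medium. Hdac9 was highest in hypoxic growth medium, at 0.185 and 0.127 FPKM, and lowest in hypoxic differentiation medium, at 0.0244 and 0.0483 FPKM. If its smallest step is 1 fragment, these correspond to about 11.1 and 2.25 fragments over 2 libraries. The Poisson intervals are then 0.0787 to 0.28 and 0.00487 to 0.114 FPKM, which overlap. Single libraries did not hold whole steps (6.75 and 4.38 in hypoxic growth medium), so these counts are approximate.

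The order of the levels changed with differentiation at 21% oxygen. In normoxic growth medium Hdac5 (40.6 FPKM) and Hdac7 (38.0 FPKM) led with overlapping libraries, followed by Mef2a, Mef2d and Hdac4. In normoxic differentiation medium Mef2a (104.7 FPKM), Mef2d (40.6 FPKM) and Mef2c (27.7 FPKM) stood above Hdac5, Hdac4 and Hdac7. In both hypoxic groups the order was Hdac5, Mef2d, Hdac7, Mef2a, Hdac4, Hdac9 and Mef2c, and every neighbouring pair was apart in both libraries. With 2 libraries a group, apart means only that the ranges did not meet. Hdac9 and Mef2c rest on a few fragments. In hypoxic differentiation medium their Poisson intervals overlap (0.00487 to 0.114 and 0.000218 to 0.048 FPKM), so their order there is not settled.

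**Figure D3:**
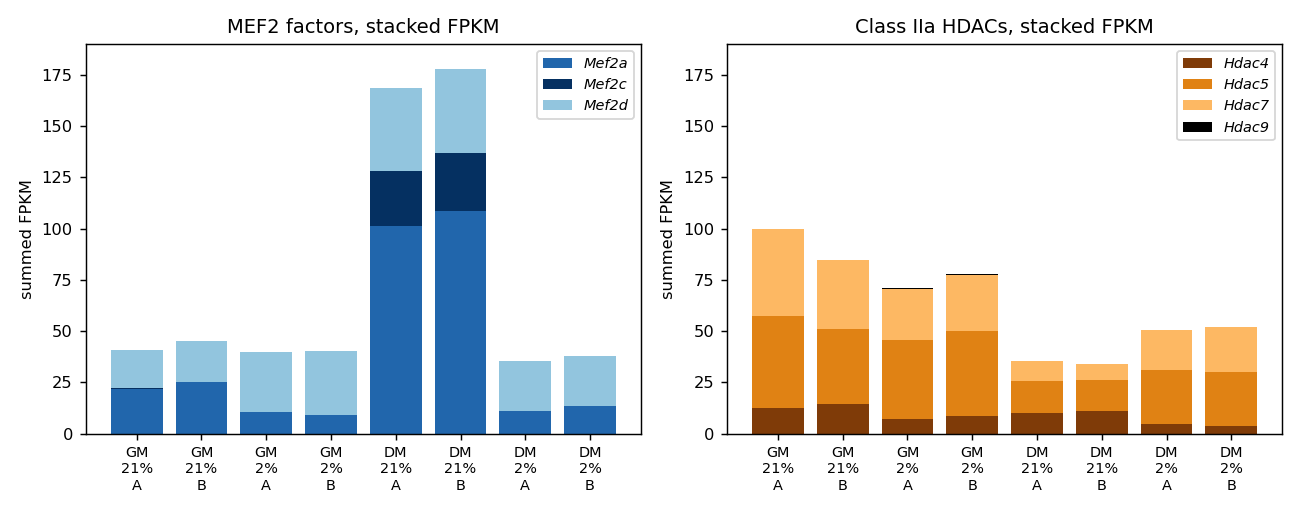
Stacked FPKM of the 3 MEF2 factors (left) and the 4 class IIa deacetylases (right) in each library, on axes of the same range that start at 0. The MEF2 bars reach 168.3 and 177.7 FPKM in normoxic differentiation medium and 35.2 to 45.1 FPKM in the other libraries, where Mef2c is at most a thin line.

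Summed over the family, MEF2 RNA was 168.3 and 177.7 FPKM in normoxic differentiation medium. It was 40.7 and 45.1 FPKM in normoxic growth medium, and at 2% oxygen 39.9 and 40.2 FPKM before and 35.2 and 38.0 FPKM after the change of medium. The 3 low groups had nearly the same sum but not the same makeup. Mef2a made up 54.1% and 55.4% of it in normoxic growth medium, 26.7% and 23.0% in hypoxic growth medium, and 31.4% and 35.5% in hypoxic differentiation medium, and Mef2d made up nearly all of the rest. In normoxic differentiation medium the shares were 60.0% and 61.0% for Mef2a, 24.0% and 23.0% for Mef2d, and 16.0% and 16.0% for Mef2c.

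The class IIa sum at 21% oxygen was 99.8 and 84.5 FPKM in growth medium and 35.6 and 33.9 FPKM in differentiation medium. At 2% oxygen it was 70.9 and 77.7 FPKM in the former and 50.4 and 52.1 FPKM in the latter. Hdac5 held 43.1% to 54.0% of it in every library. The share of Hdac4 was 28.8% and 32.9% in normoxic differentiation medium, against 7.58% to 17.3% elsewhere, with Hdac5 and Hdac7 at their lowest in that group. The ratio of MEF2 to class IIa FPKM, which does not depend on how libraries are scaled, was 0.408 and 0.533 in normoxic growth medium, 0.563 and 0.518 in hypoxic growth medium, and 0.70 and 0.728 in hypoxic differentiation medium. It was 4.73 and 5.24 in normoxic differentiation medium, the only group with more MEF2 than class IIa RNA. These sums are descriptions and carry no test.

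Over the 8 libraries, profiles of log2(FPKM + 1) of Hdac5 and Hdac7 were the closest pair of members (Euclidean distance 0.718 after centring, r = 0.963). Mef2a and Mef2c correlated with r = 0.943 at a distance of 2.74, since Mef2c spans a wider range. Hdac4 correlated with Hdac5 and Hdac7 at r of 0.072 and 0.054. These values describe 8 libraries in 4 groups, which share their culture conditions. The genes with profiles closest to Mef2c were Filip1 (distance 0.0884), Oas2 (0.123) and Cacna1s (0.17), the last encoding the skeletal muscle calcium channel and voltage sensor. Each was at 25.6 to 30.9 FPKM in normoxic differentiation medium and under 0.1 FPKM in the other 6 libraries. Closest to Mef2a were Stk17b (0.381), Ttc9 (0.422) and Sh3bgr (0.45). Closest to Mef2d were Dnmt3a (0.167), a DNA methyltransferase, Adrb1 (0.184) and Lsm14a (0.225). Adrb1 went from 0.163 and 0.251 FPKM in normoxic growth medium to 1.16 and 1.21 FPKM in normoxic differentiation medium. At such low levels the pseudocount shrinks the change, so a short distance does not mean a similar ratio. For Hdac4 they were Col27a1 (0.292), Klhl13 (0.295) and Antxr1 (0.337). For Hdac5 they were Ldb1 (0.131), P4htm (0.184) and Kdelr1 (0.232), and for Hdac7 Htra3 (0.227), Sh3bp1 (0.33) and Ier5l (0.334).

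Other parts of the pathway were read from lists of named genes. Beside their counts, 25.5% of all genes rose and 41.0% fell on differentiation at 21% oxygen. Of 7 deacetylases of the other classes, 2 rose and 5 fell on differentiation at 21% oxygen, with a median log2 change of -0.89 against -0.20 over all genes. The 2 rises were those of Hdac2 and Hdac11, and 0 or 1 was left without any 1 of the 4 libraries at 21% oxygen (0 without normoxic differentiation replicate B). Hdac1, a class I enzyme of general corepressor complexes, fell by 1.34 ± 0.08 on the log2 scale (adjusted p 1.78e-05), about as much as Hdac5. Hdac3, the enzyme that class IIa proteins recruit, was at 51.4 and 46.3 FPKM in normoxic growth medium and 29.3 and 29.2 FPKM in normoxic differentiation medium (-0.72 ± 0.08, adjusted p 0.000332). Class IIa RNA was 1.94 and 1.83 times Hdac3 RNA in the former group and 1.22 and 1.16 times in the latter. This ratio also fell at 2% oxygen, from 2.02 and 2.18 in growth medium to 1.38 and 1.30 in differentiation medium. Hdac11, the class IV enzyme, was higher on differentiation at 21% oxygen (0.37 ± 0.12, adjusted p 0.0267), a call lost without normoxic growth replicate B (adjusted p 0.122) and without either normoxic differentiation library (adjusted p 0.0925 and 0.132), and fell at 2% oxygen (-1.35 ± 0.12, adjusted p 0.000545), with an interaction of -1.72 ± 0.16 (adjusted p 0.000258).

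**Figure D4:**
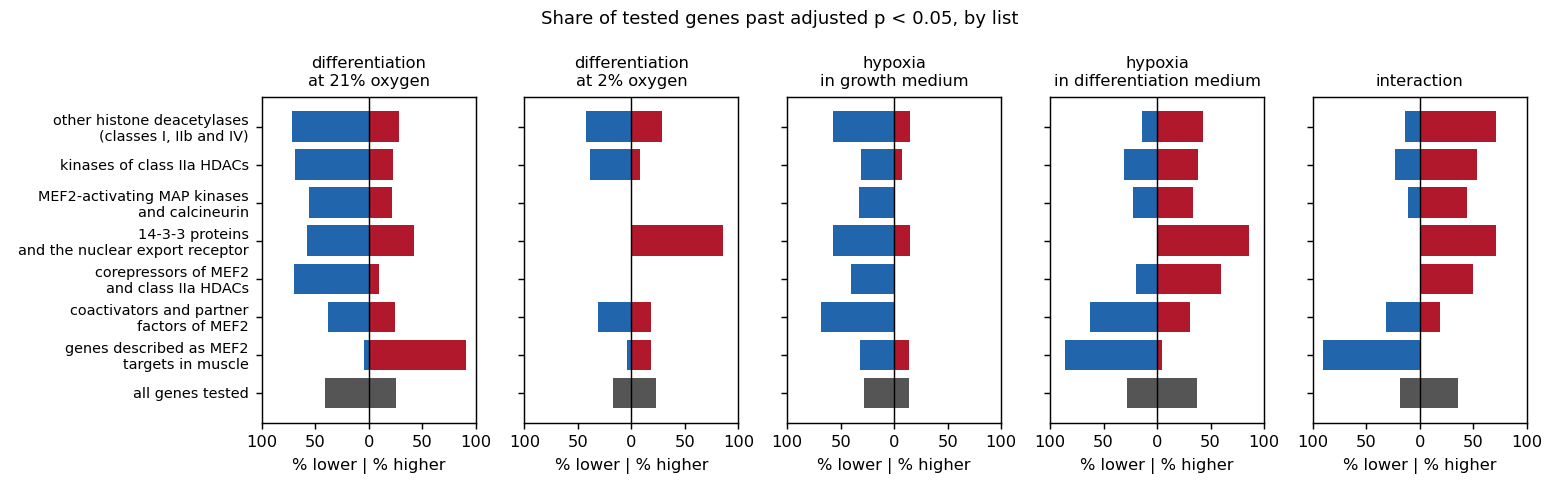
Share of the tested genes of each list (rows) called higher (red, to the right) or lower (blue, to the left) at an adjusted p under 0.05 in the 5 contrasts, with all 12389 genes in grey. Of all genes 25.5% are called higher on differentiation at 21% oxygen and 23.3% at 2% oxygen. Some MEF2 target genes, Mb among them, passed the filter only through normoxic differentiation medium, where they are high. MEF2 target genes are called higher for 20 of 22 on differentiation at 21% oxygen and for 4 of 22 at 2% oxygen, where 2 to 6 were called higher with 1 library left out.

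Of 16 kinases known to phosphorylate class IIa deacetylases, 13 were tested, and on differentiation at 21% oxygen 3 rose and 9 fell (median log2 change -0.73). Of all genes 25.5% rose and 41.0% fell (median -0.20). Camk2a, a calcium/calmodulin-dependent kinase, rose from 0.769 and 0.641 to 22.9 and 23.2 FPKM (3.82 ± 0.09). Among the 3 rises, Camk2a and Camk2b passed the filter only through normoxic differentiation medium, where they were high. A test of their rises or interactions carries no weight. Sik1, a salt-inducible kinase, was at 7.68 and 7.55 FPKM in normoxic growth medium and 37.6 and 38.3 FPKM in normoxic differentiation medium. In hypoxic differentiation medium it was at 2.0 and 2.5 FPKM, with an interaction of -3.35 ± 0.15 (adjusted p 1.26e-05). Prkd2, a protein kinase D, had the largest fall at 21% oxygen (-1.71 ± 0.21, adjusted p 0.000446). At 2% oxygen 23.3% of all genes rose and 17.6% fell (median 0.07), and 1 kinase rose and 5 fell (median -0.20). The falls were 2 without hypoxic growth replicate A or with only the libraries compared, and 3 without hypoxic growth replicate B. The interaction was positive for 7 kinases and negative for 3, or 4 and 3 after median-of-ratios scaling. Over all genes it was positive for 35.4% and negative for 18.7%, or 23.7% and 26.7% after that scaling.

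Of 9 genes for MAP kinases and calcineurin, which activate MEF2, 2 rose and 5 fell on differentiation at 21% oxygen (median log2 change -0.47), with 1 rise left without normoxic growth replicate A or either normoxic differentiation library. Of all genes 25.5% rose and 41.0% fell at 21% oxygen (median -0.20), and 23.3% rose and 17.6% fell at 2% oxygen. By limma 0 of the 9 passed at 2% oxygen, where 1 was higher and 1 lower at an unadjusted p under 0.05. That 0 did not hold in every setting: 1 was lower under both scalings and without hypoxic differentiation replicate A, and 1 was higher and 1 lower without hypoxic differentiation replicate B. Map2k6, a kinase upstream of p38, was at 0.339 and 0.243 FPKM in normoxic differentiation medium and at 7.55 and 4.58 FPKM in the hypoxic one, where the interaction was 2.41 ± 0.32 (adjusted p 0.00111). Ppp3cc, a calcineurin catalytic subunit, had the largest rise at 21% oxygen (0.64 ± 0.10, adjusted p 0.00146). The 14-3-3 genes and the export receptor Xpo1, which carry class IIa proteins out of the nucleus, were tested for 7 of 8. At 2% oxygen 6 of the 7 rose on differentiation and by limma 0 fell, also unadjusted (median 0.62 against 0.07 over all genes). The rises did not all hold: Ywhah lost its call without hypoxic growth replicate A (log2 change 0.44) and without replicate B (0.47). At 21% oxygen 3 rose and 4 fell, or 3 and 2 under both scalings, and 1 rise was left without normoxic growth replicate A or either normoxic differentiation library. Ywhah was at 51.0 and 45.2 FPKM in normoxic and 138.7 and 157.1 FPKM in hypoxic differentiation medium (1.60 ± 0.09, adjusted p 1.34e-05), and Ywhaq differed by 1.11 ± 0.07 (adjusted p 1.93e-05).

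Of 10 corepressor genes, Hdac3 among them, 1 rose and 7 fell on differentiation at 21% oxygen (median log2 change -0.49), or 1 and 4 after median-of-ratios scaling and without normoxic differentiation replicate A. Of all genes 25.5% rose and 41.0% fell at 21% oxygen (median -0.20), or 33.9% and 31.5% after median-of-ratios scaling. At 2% oxygen 23.3% of all genes rose and 17.6% fell. By limma 0 of the 10 passed at 2% oxygen, where 3 were higher and 2 lower at an unadjusted p under 0.05. Of these 10, 1 was called higher without either normoxic growth library, and 1 higher and 1 lower without hypoxic differentiation replicate A. The largest fall was that of Gps2, a subunit of the NCoR complex (-1.17 ± 0.19, adjusted p 0.00168), and Cbx5, the heterochromatin protein that class IIa deacetylases can bind, rose (0.51 ± 0.12, adjusted p 0.00738). Of 16 coactivators and partner factors, 4 rose and 6 fell at 21% oxygen, or 6 and 5 after median-of-ratios scaling. Myf6, among the rises, passed the filter only through normoxic differentiation medium, so its test carries no weight. In growth medium 11 were lower at 2% oxygen and by limma 0 higher, also unadjusted, beside 28.0% and 13.5% of all genes called. After median-of-ratios scaling 9 were lower and 1 higher, after upper-quartile scaling 7 and 1, and without hypoxic growth replicate A 7 and 0. Myod1 was at 138.7 and 108.1 FPKM in normoxic and 25.1 and 26.1 FPKM in hypoxic growth medium. Myog, a partner and a target of MEF2, was at 2576 and 2642 FPKM in normoxic differentiation medium and 4.49 and 2.14 FPKM in the hypoxic one.

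Of 24 genes described as MEF2 targets in muscle, 22 were tested. Of all genes 25.5% rose and 41.0% fell on differentiation at 21% oxygen (median -0.20), and 23.3% and 17.6% at 2% oxygen (median 0.07). Of the 22, 20 rose and 1 fell at 21% oxygen, with a median log2 change of 4.59. At 2% oxygen 4 rose and 1 fell, with a median of 0.11. The counts at 2% oxygen were 2 and 0 without hypoxic growth replicate B or with only the libraries compared, 3 and 2 under both scalings, and 6 and 4 without hypoxic differentiation replicate B. The list holds many markers of myotubes, so its counts are not independent of differentiation as a whole. Some of its genes, such as Mb, Hrc and Lmod3, passed the filter only through normoxic differentiation medium, where they were high. For these the filter favoured a rise at 21% oxygen and a negative interaction. The counts of this list therefore carry no weight as a test and cannot be compared directly with the shares of all genes. The oxygen-storage gene Mb rose most at 21% oxygen, from 0.57 and 0.44 to 1182 and 1040 FPKM. It was at 0.735 and 0.357 FPKM in hypoxic differentiation medium (interaction -9.09 ± 0.20). Over all genes the interaction was negative for 18.7% and positive for 35.4%. The interaction was negative for 20 of the 22 and by limma positive for 0, also unadjusted, with 1 positive without hypoxic differentiation replicate A. Klf2, an endothelial MEF2 target, was the gene called lower at 21% oxygen (-0.46 ± 0.16, adjusted p 0.0415), a call lost under both scalings (adjusted p 0.25 and 0.134) and without normoxic growth replicate A or either normoxic differentiation library (adjusted p 0.115 to 0.198). It was higher at 2% oxygen in both media, by 0.98 ± 0.16 in growth medium (adjusted p 0.0038) and 1.39 ± 0.16 in differentiation medium (adjusted p 0.000341).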

How the data were processed

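RNA-seq libraries of C2C12 cells in 4 groups of 2 were used. The authors aligned reads with STAR 2.5.1b and quantified genes with Cufflinks 2.2.1 on mm9, per the submitters' processing notes, and deposited values with 1 column per library. These deposited values were read as FPKM from their size and the quantifier, while the table is named as counts. The library kit was stranded per the labels' protocols. Annotation, use of strand in counting and scaling between libraries are not given in the sources used here. By RefSeq, 6 members overlap other genes (all but Mef2a). Of these genes 1700113A16Rik (Mef2d), Mir8101 (Hdac5) and Slc48a1 (Hdac7) are in the table, and shared reads cannot be separated for any of the 6. Absolute depth is unknown. Relative depth, from the step of low values, was 0.633 to 1. With limma 3.58.1 (R 4.3.3), log2(FPKM + 1) of all 8 libraries was fitted with 4 group means and a variance trend (4 residual and 2.61 prior degrees of freedom), after a filter of a mean of at least 1 FPKM in a group. Tests are two-sided. The script was tested on simulated data for differentiation at 21% oxygen over 12389 genes and recovered 73.0% of changes of 1 and 98.0% of changes of 2 (log2). Alternatives were pseudocount 0.1, no filter, median-of-ratios and upper-quartile scaling, robust moderation, only the libraries compared, a replicate block, each library left out, and a log2 change of at least 1. Members and lists were chosen with earlier results of these data known. Named genes are the members, Mef2b, the 3 genes nearest to each member by distance, and in each list the largest rises and falls, with Myod1, Myog, Hdac3 and genes named for function (Xpo1). The chromatin libraries were not analysed here.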

Additional observations from a re-analysis of the deposited data

Results flagged for a closer look

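The change with differentiation medium differed between 2% and 21% oxygen, by the interaction term in limma, for 5 of the 6 tested members. Mef2c is among them, but it passed the filter only through its highest group, so its test carries no weight. The difference of log2 changes (2% minus 21%) was -4.79 for Mef2c, -1.84 for Mef2a and -1.33 for Mef2d, and 0.76 for Hdac5 and 1.66 for Hdac7. Mef2d alone of the MEF2 factors was called in opposite directions at the 2 oxygen levels, higher at 21% (1.03) and lower at 2% (-0.30), although the second call was lost without either hypoxic growth library. Of all genes, 54.1% had an interaction past the threshold.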

How the results depend on the processing

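The number of members called was 5, 3, 4, 6 and 5 for differentiation at 21% and at 2% oxygen, hypoxia in growth and in differentiation medium, and the interaction. Mef2c, which passed the filter only through its highest group, is counted where normoxic differentiation medium takes part. The number called moved by over 1.5 times in 2 comparisons. For differentiation at 2% oxygen it was 1 with only the libraries compared, 0 with a log2 change of at least 1, and between 0 and 4 with a library left out. For hypoxia in growth medium it was 1 with a log2 change of at least 1 and between 2 and 4 with a library left out. The Hdac5 change with hypoxia in growth medium turned from -0.02 to 0.12 (median-of-ratios scaling), 0.14 (upper-quartile scaling), 0.12 (without normoxic growth replicate A) and 0.03 (without hypoxic growth replicate A), with a lowest value of -0.17 without normoxic growth replicate B, and was never past the threshold. The Hdac7 change at 2% oxygen passed after upper-quartile scaling (-0.42, adjusted p 0.0476). With the replicate block 5, 3, 3, 6 and 5 members were called in the same order, and the call lost was Hdac7 for hypoxia in growth medium (adjusted p 0.055). A minus B differences correlated between groups at -0.166 to 0.042, so the letters A and B showed no strong shared effect. This cannot tell whether libraries of the same letter were cultured or prepared together. Scaling moved the median change of all genes from -0.20 to 0.00 for differentiation at 21% oxygen. No fit with only the libraries compared exists for the interaction. Mef2c outside normoxic differentiation medium, and Hdac9, rest on a few fragments.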

Other observations

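Mef2b, the fourth MEF2 gene, did not reach the filter of 1 FPKM as a group mean. It was at 0 and 0.0843 FPKM in normoxic growth medium, and at 2% oxygen 0.831 and 0.88 FPKM before and 0 and 0.308 FPKM after the change of medium. In normoxic differentiation medium it was at 0.666 and 1.27 FPKM. After median-of-ratios scaling it passed the filter, but only through normoxic differentiation medium, where it was highest. Its log2 change was then 0.97 on differentiation at 21% oxygen and -0.73 at 2% oxygen. Because the filter selected it for that high group, a test of these changes carries no weight. MicroRNAs of the miR-1 and miR-206 family are known to target Hdac4. Mir1a-1 was listed at 539.4 FPKM in normoxic differentiation replicate B and at 0 in the other 7 libraries, and Mir206 and Mir1a-2 at 0 in all 8, so these short genes give no usable level here.

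Hdac9 is known as a MEF2 target in muscle. Its level in normoxic differentiation medium, where MEF2 RNA was highest, was 0.0775 ± 0.0251 FPKM (SD, n = 2), with libraries that overlap those of normoxic growth medium at 0.0668 ± 0.0115 FPKM. Without the filter on low values limma gave it a log2 change of 0.01 ± 0.03 there (adjusted p 0.786), -0.16 ± 0.03 for differentiation at 2% oxygen (adjusted p 0.0177) and 0.12 ± 0.03 for hypoxia in growth medium (adjusted p 0.0449), on values of a few fragments.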
